A study of Mus musculus with 8 samples.

Results

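The 10 genes described here are the NFAT transcription factor family, *Nfat5* and *Nfatc1* to *Nfatc4*, together with 5 genes of osmolyte uptake or synthesis that are reported targets of NFAT5 (*Akr1b3*, *Slc5a3*, *Slc6a6*, *Slc6a12* and *Slc38a2*). They were taken by gene name, with earlier results of these data known, and all 10 were measured among the 25428 probe sets of the array, with 1 probe set per gene. RNA of 1 lung lobe per mouse was profiled on Affymetrix Mouse Gene ST arrays. Values are log2 intensities, which are not compared between genes because each probe set has its own brightness. The mice kept for 7 days at 10% oxygen (hypoxia) carry the letters A, B, C and D, and the mice kept in normoxia the letters F, G, H and I. All 8 mice were *Nfat5*fl/fl, so an exon of *Nfat5* was flanked by loxP sites but not deleted, and the letters name separate mice that do not pair the groups. In the methods of the study this line was crossed with a tamoxifen-inducible Cre driven by the smooth muscle myosin heavy chain promoter, male mice were used, and *Nfat5*fl/fl mice received the solvent miglyol in place of tamoxifen. Whether the mice on these arrays carried the Cre is not given in the sources used here.

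NFAT5, also called tonicity-responsive enhancer binding protein, belongs to the Rel family of DNA-binding proteins. In hypertonic surroundings it enters the nucleus and drives genes that load the cell with organic osmolytes such as sorbitol, myo-inositol, taurine and betaine, through a DNA element called TonE. NFATc1 to NFATc4 share the Rel-like DNA-binding domain but are controlled differently, since calcium activates the phosphatase calcineurin, which removes phosphates from them so that they enter the nucleus, while kinases return them to the cytosol. The activity of these factors is set largely by their phosphorylation and location, which an array of RNA does not measure.

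TonE and the shorter core GGAAA, which lies inside TonE and is bound by all NFAT proteins, were searched on both strands in promoter windows of 300 bases, 250 before and 50 after a transcription start (RefSeq, GRCm38.p6). The table held 13 windows of 7 of the 10 genes. *Nfatc1*, *Akr1b3* and *Slc6a6* had no window and were not searched. TonE was found in 2 of these 13 windows, one of *Slc6a12* and one of *Nfatc2*, against 4.96% of all 32851 windows, and GGAAA was found in 6 of the 13, against 61.3% of all windows. The surroundings of both TonE matches are shown because TonE is the element through which NFAT5 is known to act on osmolyte genes. Capitals mark the match, and each sequence is written along the strand of its gene.
*Slc6a12*, chr6:121342469-121342539, plus strand, match 75 bases before the start: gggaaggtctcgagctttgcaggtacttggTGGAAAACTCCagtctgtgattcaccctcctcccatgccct
*Nfatc2*, chr2:168601822-168601892, minus strand, match 205 bases before the start: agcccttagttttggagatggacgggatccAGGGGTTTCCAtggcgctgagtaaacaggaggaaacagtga
In *Slc6a12* the GGAAA core reads along the gene, and in *Nfatc2* it lies on the opposite strand as its reverse complement. A match describes letters of the window and not a bound site, and the other windows were without a TonE match in these 300 bases only.

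The lobes carried lung RNA in both groups. The alveolar type 2 marker *Sftpc* averaged 13.31 ± 0.24 in hypoxia and 13.06 ± 0.29 in normoxia (log2 intensity, SD, n = 4 each), and the alveolar type 1 marker *Ager* 12.02 ± 0.38 in hypoxia and 11.62 ± 0.45 in normoxia. Markers of other tissues differed between the mice. All 10 adipocyte markers and 7 of 10 cardiac muscle markers were lower in hypoxia at an unadjusted p under 0.05, against 3.15% of all probe sets. The mean deviation of the 11 skeletal muscle markers was between -1.09 and -0.10 in hypoxia. It was 2.27 and 2.17 in normoxia mice F and G, but -1.07 and -0.46 in normoxia mice H and I. Of 10 smooth muscle markers 4 were higher in hypoxia at an unadjusted p under 0.05, against 5.34% of all probe sets, and 0 were lower. In such bulk RNA, fewer cells of a type and less RNA per cell cannot be told apart.

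None of the 10 genes passed the threshold of 0.05 after Benjamini-Hochberg adjustment over all probe sets in limma, which tested differences of hypoxia minus normoxia. This was also so for the whole array, where 0 of 25428 probe sets (0%) passed, with limma and with the study's unmoderated test, although limma gave 1359 higher and 802 lower ones below 0.05 before adjustment. At an unadjusted p under 0.05, 1 of the 10 genes was higher in hypoxia, the taurine transporter gene *Slc6a6*, against 5.34% of all probe sets, and 0 were lower, against 3.15% of all. The groups of mice overlapped for all 10 genes, while 3.01% of all probe sets had every hypoxia mouse above every normoxia mouse and 1.61% the reverse. By their means 5 of the genes were higher and 5 lower in hypoxia. The median difference was -0.01 on the log2 scale, against -0.0049 over all probe sets. A p that misses the threshold does not show that the levels were alike.

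**Figure D1:**
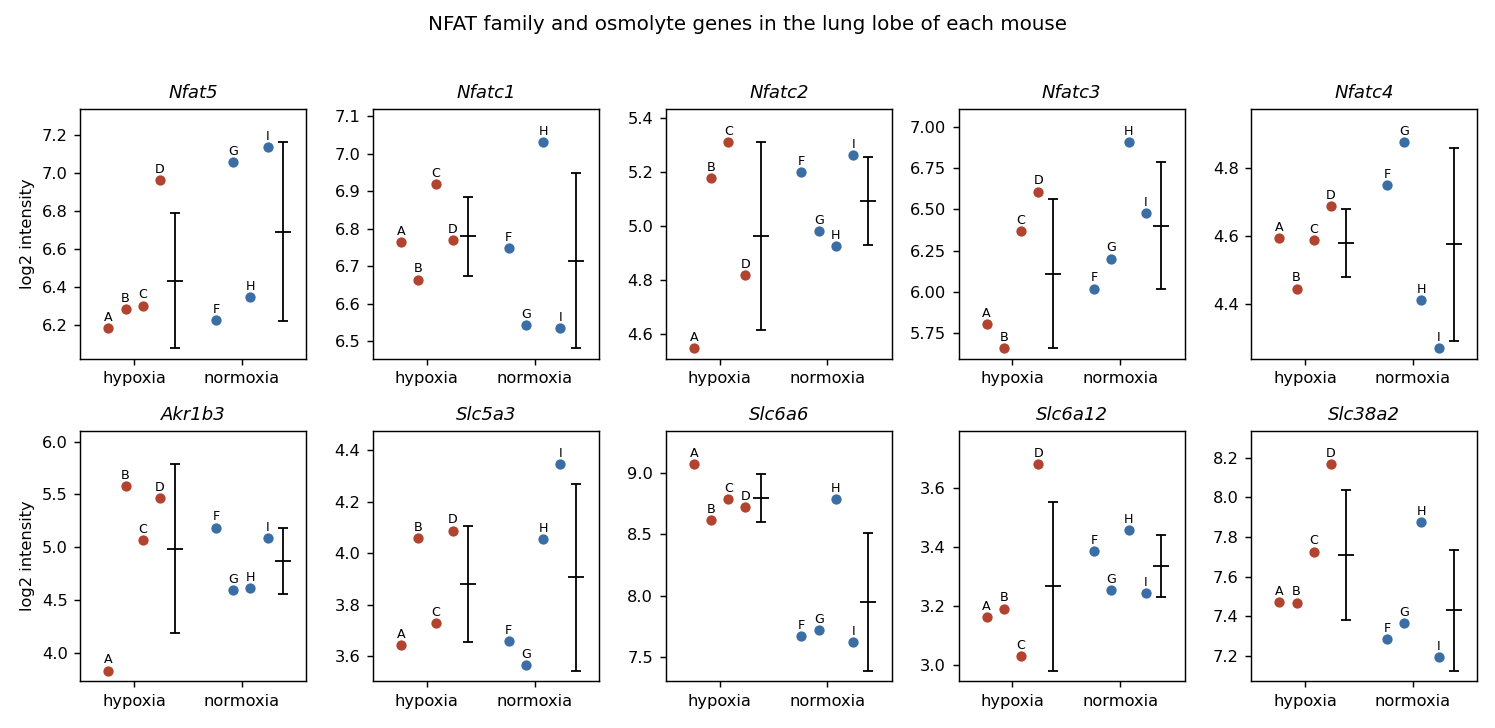
Log2 intensity of each of the 10 genes (vertical axes, scaled per gene) in hypoxia mice A to D (left) and normoxia mice F to I (right); black bars give the mean ± SD of the 4 mice. The groups overlap in every panel, and in *Slc6a6* only normoxia mouse H reaches the hypoxia mice.

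*Nfat5* measured 6.18, 6.28, 6.30 and 6.96 in hypoxia mice A, B, C and D, against 6.22, 7.05, 6.35 and 7.13 in normoxia mice F, G, H and I. The means were 6.43 ± 0.36 in hypoxia and 6.69 ± 0.47 in normoxia (SD, n = 4 each). The difference of -0.26 (SE 0.25, 95% interval -0.81 to 0.29) did not pass the test (limma, adjusted p = 0.828; two-sided exact permutation p = 0.257, of which the smallest possible is 0.0286). As a fold, the interval runs from 0.571 to 1.23. The size of the difference rested on single mice, being -0.43 without hypoxia mouse D and -0.11 without normoxia mouse I, and 0 of 15 alternatives reached an unadjusted p under 0.05. The levels did not spread evenly but fell in 2 ranges, 6.18 to 6.35 in 5 mice (A, B, C, F and H) and 6.96 to 7.13 in the other 3 (D, G and I). The gap of 0.62 between these ranges was wider than the difference of the group means, and each range held mice of both groups.

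Of the 4 calcineurin-dependent genes, 0 were past an unadjusted p of 0.05. *Nfatc3*, whose product acts in T cells and in smooth muscle, measured 5.80, 5.66, 6.37 and 6.61 in hypoxia, against 6.02, 6.20, 6.91 and 6.48 in normoxia. Mice A and B of the hypoxia group were below all normoxia mice, while C and D lay among them. The difference of -0.29 (SE 0.25, adjusted p = 0.803, limma) had an interval of -0.85 to 0.26, and it was -0.46 without hypoxia mouse D, -0.12 without normoxia mouse H and -0.58 without normoxia mice F and G.

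*Nfatc1*, which is required for heart valve and osteoclast development, measured 6.76, 6.67, 6.92 and 6.77 in hypoxia, against 6.75, 6.54, 7.03 and 6.54 in normoxia. The hypoxia mice lay inside the range of the normoxia mice, and the difference was 0.07 (SE 0.16, interval -0.28 to 0.41). *Nfatc2*, the NFAT1 of T cells and one of the genes with a TonE match shown above, measured 4.54, 5.18, 5.31 and 4.82 in hypoxia, against 5.20, 4.98, 4.93 and 5.26 in normoxia. Here the lowest and the highest value were both from hypoxia mice, A and C, and the difference was -0.13 (SE 0.19, interval -0.55 to 0.29). *Nfatc4* measured 4.59, 4.45, 4.59 and 4.69 in hypoxia, against 4.75, 4.88, 4.41 and 4.27 in normoxia, which put the hypoxia mice within the wider normoxia range, with a difference of 0.00 (SE 0.17, interval -0.37 to 0.37). B and T cells express NFATc genes, and 5 of 7 B cell markers were lower in hypoxia at an unadjusted p under 0.05. Their highest mean deviation, 1.36, was in normoxia mouse F. Of all probe sets, 3.15% were lower and 5.34% higher at that level. Of 10 T cell markers 0 differed at that level, and the part of immune cells in the NFATc levels was not tested.

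Among the osmolyte genes, *Slc6a6* set the groups apart most. It encodes TauT, the sodium-dependent carrier that brings taurine into cells. It measured 9.07, 8.61, 8.79 and 8.72 in hypoxia mice A, B, C and D, against 7.67, 7.72, 8.79 and 7.62 in normoxia mice F, G, H and I. All hypoxia mice were above normoxia mice F, G and I, and normoxia mouse H lay among the hypoxia mice. The means were 8.80 ± 0.20 in hypoxia and 7.95 ± 0.56 in normoxia (SD, n = 4 each), a difference of 0.85 (SE 0.25, 95% interval 0.30 to 1.40) or 1.80-fold. The unadjusted p was 0.00605 in limma, the adjusted p = 0.321, and the two-sided exact permutation p = 0.114. Without normoxia mouse H the difference was 1.13 (adjusted p = 0.0539, limma). Without normoxia mice F and G, which carried the high skeletal muscle markers, it was 0.59 (adjusted p = 0.436, limma) and no longer at an unadjusted p under 0.05. That setting left normoxia mice H and I, at 8.79 and 7.62 in *Slc6a6*. Both had low skeletal muscle markers, with mean deviations of -1.07 and -0.46. The part of skeletal muscle in the *Slc6a6* difference was not tested.

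*Slc38a2*, which encodes SNAT2, a sodium-coupled carrier of small neutral amino acids, measured 7.47, 7.47, 7.73 and 8.17 in hypoxia, against 7.29, 7.37, 7.88 and 7.20 in normoxia. Mouse D of the hypoxia group was highest, mouse H of the normoxia group came next, and the other 3 normoxia mice were below all hypoxia mice. The difference was 0.28 (SE 0.21, interval -0.18 to 0.73, adjusted p = 0.768, limma), and it was 0.43 without normoxia mouse H and 0.12 without hypoxia mouse D. *Akr1b3*, the aldose reductase that turns glucose into sorbitol, measured 3.83, 5.58, 5.07 and 5.47 in hypoxia, against 5.19, 4.59, 4.61 and 5.09 in normoxia. Hypoxia mouse A stood far below the others, and the difference of 0.12 (SE 0.34, interval -0.63 to 0.86) became 0.50 without it (adjusted p = 0.602, limma).

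The remaining 2 osmolyte genes were dim, below the array median on most arrays, where a difference is hard to measure. *Slc5a3*, which encodes the sodium/myo-inositol cotransporter SMIT1, measured 3.65, 4.06, 3.73 and 4.09 in hypoxia, against 3.66, 3.57, 4.06 and 4.35 in normoxia, with full overlap and a difference of -0.03 (SE 0.20, interval -0.47 to 0.42). *Slc6a12* encodes the betaine transporter BGT1 and has the TonE match 75 bases before 1 of its annotated transcription starts. It measured 3.16, 3.19, 3.03 and 3.68 in hypoxia, against 3.39, 3.25, 3.46 and 3.24 in normoxia. Hypoxia mice A, B and C were below all normoxia mice and mouse D above them, and the difference was -0.07 (SE 0.17, interval -0.44 to 0.30).

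**Figure D2:**
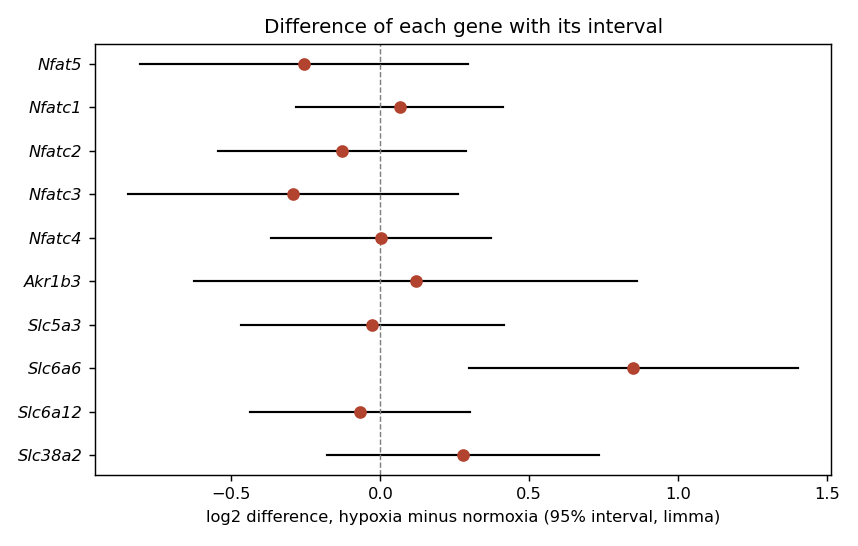
Difference of the group means of each gene (points, log2 scale, hypoxia minus normoxia) with its 95% interval from limma (lines), and a dashed line at 0. The interval of *Slc6a6*, 0.30 to 1.40, lies above 0, and those of the other 9 genes include 0.

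The osmolyte genes were then set beside the *Nfat5* level of the same mice. Because the *Nfat5* levels fell in 2 separate ranges with 5 and 3 mice, no test of a relation across the 8 mice is reported, and Pearson's r is given only as a measure of likeness. It was 0.20 for *Akr1b3*, 0.39 for *Slc5a3*, 0.32 for *Slc6a12*, -0.02 for *Slc38a2* and -0.53 for *Slc6a6*. Over all probe sets, 95% of the r values with *Nfat5* lay between -0.80 and 0.85, so these 5 values were within the range of genes in general. They rested on single mice. The 2 mice farthest from the median *Nfat5* level were normoxia mice G and I. Without them hypoxia mouse D alone was left in the upper range, so r then rested largely on D. It was 0.45 for *Akr1b3*, 0.61 for *Slc5a3*, 0.77 for *Slc6a12*, 0.85 for *Slc38a2* and 0.14 for *Slc6a6*. Leaving out 1 mouse at a time, r ran from -0.17 (without A) to 0.38 (without B) for *Akr1b3*, from 0.03 (without I) to 0.80 (without G) for *Slc5a3*, and from 0.04 (without D) to 0.47 (without I) for *Slc6a12*. For *Slc38a2* it ran from -0.50 (without D) to 0.32 (without I), and for *Slc6a6* from -0.83 (without F) to -0.34 (without I). Hypoxia mouse D combined a high *Nfat5* level with the highest *Slc38a2* and *Slc6a12* values of the 8 mice, whereas normoxia mice G and I, at the same *Nfat5* range, had low *Slc6a6* values, and I held the lowest *Slc38a2* and the highest *Slc5a3* value and G the lowest *Slc5a3* value. The NFATc genes had r values of -0.62 (*Nfatc1*), 0.08 (*Nfatc2*), 0.41 (*Nfatc3*) and 0.04 (*Nfatc4*) with *Nfat5*, and without the 2 farthest mice -0.04, -0.21, 0.51 and 0.28 in the same order.

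**Figure D3:**
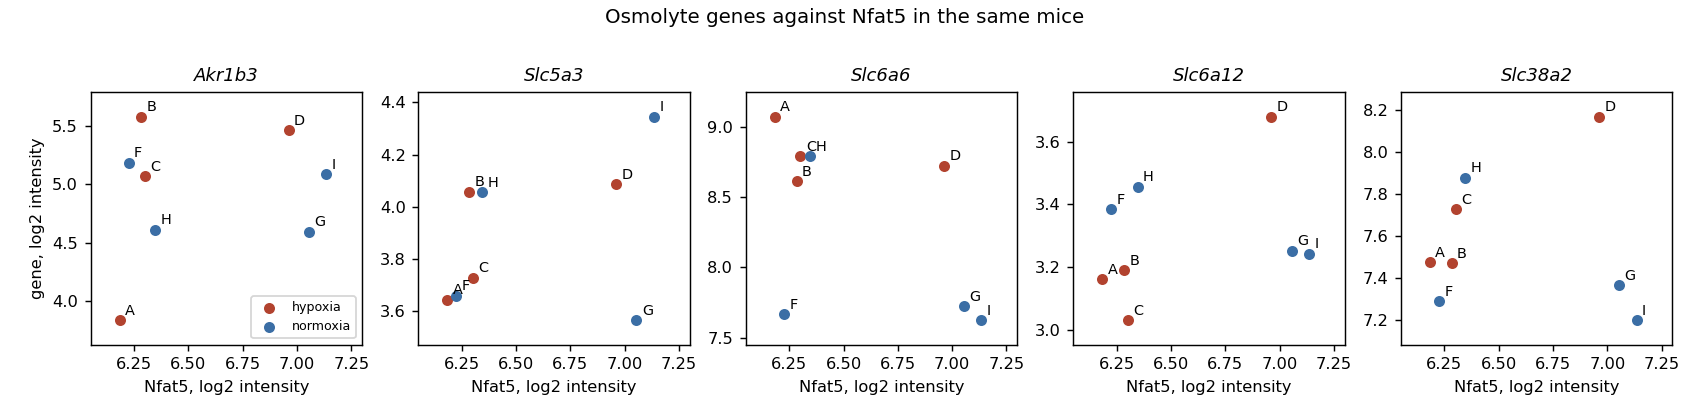
Log2 intensity of each of the 5 osmolyte genes (vertical axes) against that of *Nfat5* (horizontal axes) in hypoxia mice A to D and normoxia mice F to I. The mice stand in 2 separate ranges of *Nfat5*, and mice D, G and I, which share the upper one, are not together high or low in *Akr1b3*, *Slc5a3*, *Slc6a6*, *Slc6a12* or *Slc38a2*.

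The genes most like *Nfat5* over the 8 mice were not osmolyte genes. Among 11524 named protein-coding genes above the array median on at least 4 arrays, the highest r belonged to *Bmpr1a* (0.996), which encodes a receptor for bone morphogenetic proteins, *Pja2* (0.992), a ubiquitin ligase, *Ddx3x* (0.991), an RNA helicase, *Psme4* (0.990), a proteasome activator, and *Cd2ap* (0.989), an adaptor of the actin cytoskeleton. *Bmpr1a* measured 6.11, 6.18, 6.23 and 6.91 in hypoxia, against 6.11, 6.91, 6.31 and 6.98 in normoxia, and thus ordered the mice exactly as *Nfat5* did. Like *Nfat5*, these 5 genes were high in D, G and I. The main shared pattern of all genes searched (first principal component) held 33.7% of their variance. Its scores, signed to follow *Nfat5*, were -0.339, -0.368, -0.378 and 0.094 in A, B, C and D. In F, G, H and I they were -0.097, 0.221, 0.147 and 0.72. Mouse I had the highest score, and H was positive although low in *Nfat5*. The part of this broad pattern in the likeness to *Nfat5* was not tested. Of the genes searched, 288 (2.5%) had an r of 0.9 or more and 100 (0.868%) an r of -0.9 or less. The 288 genes had a median genomic span of 70.6 kb, against 24 kb for all genes searched and 25.8 kb for the 100 genes of opposite pattern, and *Nfat5* itself spans 86.1 kb. Mice F and G, both with high skeletal muscle markers, were low (F) and high (G) in *Nfat5*. The parts of gene span and of tissue makeup in the pattern were not tested.

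**Figure D4:**
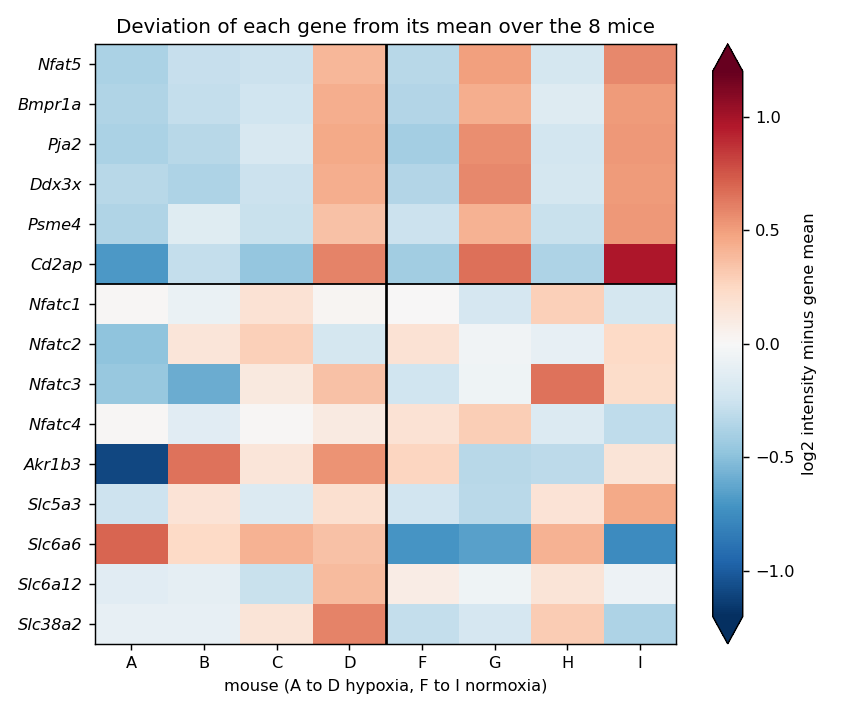
Log2 intensity of each gene minus its mean over the 8 mice (colour) for *Nfat5* and the 5 genes most like it (above the horizontal line) and for the other 9 genes (below it), in hypoxia mice A to D (left of the vertical line) and normoxia mice F to I. Mice D, G and I are high in all of the upper 6 rows, and none of the lower 9 rows is high in all of these mice.

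The surrounding pathways were followed with 8 lists, which hold 112 different genes outside the 10 described above, 111 of them measured. No gene of these lists passed the adjusted threshold. At an unadjusted p under 0.05, 18 of the 111 were higher in hypoxia (16.2%, against 5.34% of all probe sets) and 2 lower (against 3.15% of all). The groups were separate for 14 higher and 2 lower genes, against 3.01% and 1.61% of all probe sets. The counts of each list below stand against the same shares of all probe sets. The lists were drawn up with earlier results of these data known, so their counts describe them and are not a test. Of the 111 genes 98 were above the dim filter, against 12874 of all 25428 probe sets. With dim probe sets left out, 17 genes of the lists were higher, against 7.29% of the probe sets kept, and 1 was lower, against 3.51%. Without normoxia mice F and G, 18 genes of the lists were higher, against 7.32% of all probe sets, and 7 were lower, against 5.76% of all. For each list, up to 2 genes with the smallest p are named.

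Of 22 other osmolyte transporters and enzymes, 3 were higher, 1 lower and 18 not past an unadjusted p of 0.05, with a median difference of 0.10. *Cdo1*, the cysteine dioxygenase that starts taurine synthesis, measured 8.48, 8.25, 8.50 and 8.21 in hypoxia, against 9.11, 8.90, 8.89 and 9.12 in normoxia. Every hypoxia mouse was below every normoxia mouse, and the difference was -0.65 (SE 0.15, adjusted p = 0.165, limma). The mean deviation of the adipocyte markers was -1.095 to -0.641 in hypoxia. In normoxia mice F, G, H and I it was 1.849, -0.295, 1.331 and 0.658. The part of cell makeup in the *Cdo1* difference was not tested. *Slc7a1*, a carrier of cationic amino acids, measured 5.08, 5.17, 5.09 and 5.09 in hypoxia, against 4.34, 4.50, 4.80 and 4.54 in normoxia, without overlap and with a difference of 0.56 (SE 0.15, adjusted p = 0.233, limma).

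Of 20 other reported NFAT5 targets, 6 were higher, 0 lower and 14 not past that level, with a median difference of 0.18. The heat shock gene *Hspa1a*, a chaperone gene induced by hypertonicity in kidney cells, measured 6.40, 7.32, 6.79 and 8.31 in hypoxia, against 5.70, 5.38, 5.97 and 3.92 in normoxia. The groups did not overlap, and the difference was 1.96 (SE 0.47, adjusted p = 0.186, limma). *Hspa1b* differed by 1.86 (SE 0.45, adjusted p = 0.191, limma) and is a near-identical copy of *Hspa1a*, so the probes may not tell the pair apart and they are not independent results. Both are also induced by heat and by other stress of cells. Of 19 kinases and cofactors that act on NFAT5, 0 were past an unadjusted p of 0.05. The smallest p belonged to *Mapkapk2*, a kinase downstream of p38, with a difference of 0.21 (SE 0.16), and to the kinase gene *Cdk5*, with 0.21 (SE 0.17), which was 0.34 and below that level without hypoxia mouse D.

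For the calcineurin branch, 5 subunit genes gave 0 higher and 1 lower gene. The catalytic subunit *Ppp3cc* measured 4.75, 4.57, 4.73 and 4.66 in hypoxia, against 4.87, 4.78, 5.23 and 5.28 in normoxia, without overlap and with a difference of -0.37 (SE 0.16, unadjusted p = 0.0423, adjusted p = 0.561, limma). It was no longer at an unadjusted p under 0.05 in 9 of 14 alternatives, namely without dim probe sets, with an intensity trend, with array weights and without A, B, C, D, H or I. *Ppp3r2*, a regulatory subunit known from testis, differed by -0.25 (SE 0.17) at a dim level, and by -0.39, at an unadjusted p under 0.05, without normoxia mouse G. Of 13 measured calcineurin regulators 3 were higher, 0 lower and 10 not past an unadjusted p of 0.05, with a median of 0.19. *Rcan1*, which encodes an inhibitor of calcineurin and is itself a known target of NFATc proteins, measured 7.03, 7.34, 7.19 and 7.10 in hypoxia, against 6.31, 6.29, 6.84 and 6.48 in normoxia. Its groups did not overlap, mouse H was again the highest of the normoxia mice as in *Slc6a6*, and the difference was 0.69 (SE 0.16, adjusted p = 0.186, limma). *Calm3*, one of the genes of calmodulin, which carries the calcium signal to calcineurin, differed by 0.33 (SE 0.14, adjusted p = 0.531, limma) without overlap, and was no longer at an unadjusted p under 0.05 in 7 of 14 alternatives, namely after a further quantile normalization, without dim probe sets, with an intensity trend and without A, B, F or H. Of 12 kinases and adaptors that keep NFATc proteins out of the nucleus, 0 were past an unadjusted p of 0.05. The smallest p belonged to *Csnk1d*, a casein kinase, with 0.23 (SE 0.14), and to *Homer2*, with -0.31 (SE 0.19) at a dim level. *Homer2* encodes a scaffold that competes with calcineurin. *Homer2* was -0.46 and below that level without normoxia mouse G, and *Csnk1d* was below it in the study's unmoderated test.

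The 5 subunits of NF-kB, the other branch of the Rel family, gave 0 genes past an unadjusted p of 0.05, with a median of 0.22. *Rela* differed by 0.32 (SE 0.17) and *Nfkb2* by 0.49 (SE 0.30). Without normoxia mice F and G the count became 2, with 0.51 for *Rela* and 0.94 for *Nfkb2*. *Nfkb2* was 0.77 and below that level without F alone, and 0.20 without I, and *Rela* was 0.42 and below that level without hypoxia mouse D, and 0.21 without I. Of 18 channels, cotransporters and kinases of cell volume regulation, 6 were higher, 0 lower and 12 not past that level, while the median over the list was 0.00. *Trpv4*, a calcium channel opened by cell swelling, measured 5.25, 5.72, 5.13 and 4.82 in hypoxia, against 4.50, 4.70, 4.11 and 4.51 in normoxia, without overlap and with a difference of 0.77 (SE 0.21, adjusted p = 0.253, limma). The mean deviation of the 10 smooth muscle markers was -0.06 to 0.36 in hypoxia and -0.47 to 0.11 in normoxia, and among them *Acta2* differed by 0.69 (SE 0.20) and *Myh11* by -0.10 (SE 0.19). The part of the cell makeup of the lobes in these differences was not tested.

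**Figure D5:**
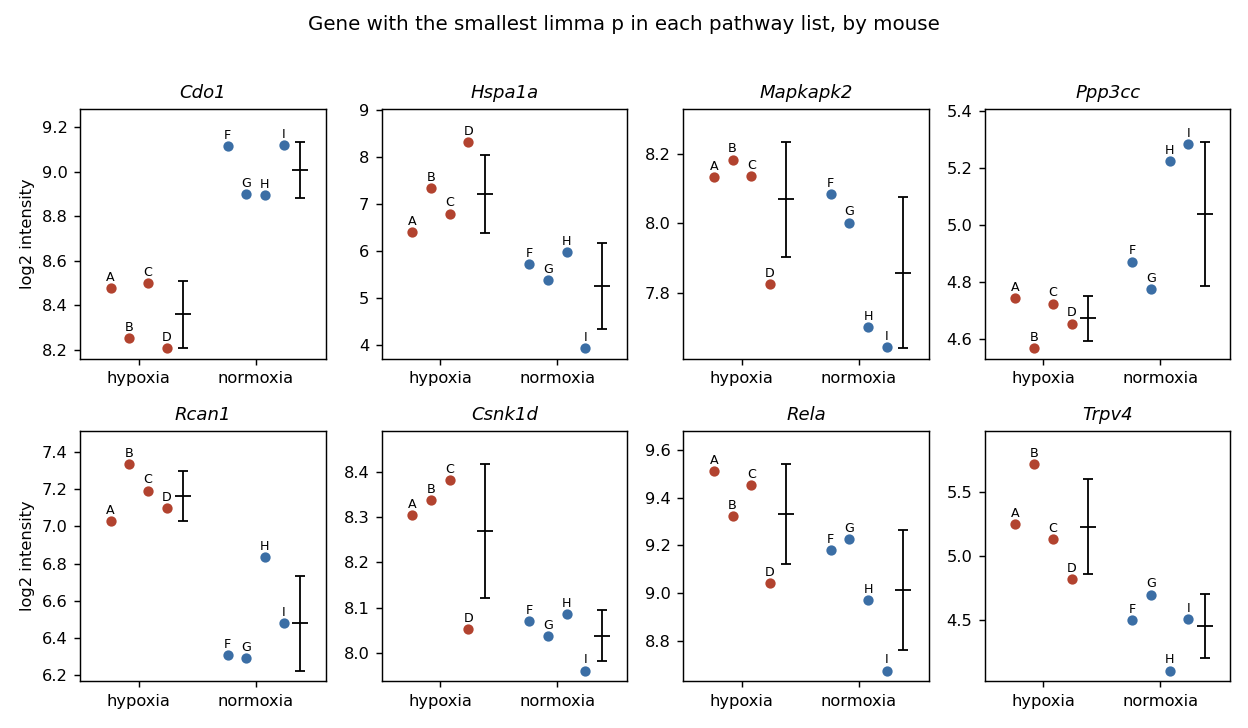
Log2 intensity (vertical axes, scaled per gene) of the gene with the smallest limma p in each of the 8 pathway lists, in hypoxia mice A to D (left) and normoxia mice F to I (right); black bars give the mean ± SD of the 4 mice. *Cdo1*, *Hspa1a*, *Ppp3cc*, *Rcan1* and *Trpv4* show separate groups, and *Mapkapk2*, *Csnk1d* and *Rela* overlap.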

How the data were processed

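The authors deposited log2 intensities, summarised per gene from the array scans. RMA is named in the submitters' processing notes, with no version, and the methods name quantile normalization with a custom chip definition of Entrez-based genes. How background was corrected, and which arrays were normalized as one set, is not given in the sources used here. With arrays, it is the number of mice that limits the precision.

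The 10 genes were found by symbol, 9 in the array annotation table and *Akr1b3* by an Entrez match to GRCm38.p6. Differences were fitted with limma (version 3.58.1, R 4.3.3; lmFit and eBayes, two-sided, Benjamini-Hochberg over all 25428 probe sets), tested on simulated data, beside exact permutation tests over the 70 assignments of the mice. The study's one-way ANOVA was an alternative. Python 3.11.15 served for tables and plots. Dim probe sets are those not above the array median on at least 4 arrays, which left 12874.

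Named are the 10 genes, up to 2 genes with the smallest p of each pathway list and the 5 most like *Nfat5*. Of the genes that this rule takes, 1 is not reported here. Tissue markers are named as checks outside this rule. A marker list's mean deviation in a mouse averages, over its markers, the value minus that marker's mean of the 8 mice. The members and lists, the lists written from textbook knowledge, were chosen with earlier results of these data known.

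Alternatives were median centring, a further quantile normalization, a filter on dim probe sets, ANOVA, an intensity trend with robust variance, array weights and leaving out each mouse. Leaving out mice F and G was added after seeing the data. Planned tests of correlations with *Nfat5* (permutation, and limma with its level as covariate) are not reported, because its levels fell in separate ranges.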

Additional observations from a re-analysis of the deposited data

Results flagged for a closer look

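In groups of 4 mice, a sample was marked when its gap to the nearest other mouse exceeded Dixon's critical share of the group's range. This held for 6 of 62 groups in 31 genes, and chance marks about 5% of groups, here 3.1 on average. *Nfat5* in hypoxia mouse D was 6.96, with a gap of 0.848 of the range. The same mouse stood apart in *Bmpr1a* (6.91, share 0.850) and *Ddx3x* (7.48, share 0.861), which were chosen for their likeness to *Nfat5* and are not independent of it, and in *Mapkapk2*, where it was low (7.82, share 0.859). *Slc6a6* in normoxia mouse H was 8.79, with a gap of 0.915 of the range. *Slc7a1* in hypoxia mouse B was 5.17 (share 0.927), in a group whose other 3 mice lay within 5.08 and 5.09.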

How the results depend on the processing

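None of the 148 recomputed differences of the 10 genes passed the adjusted threshold, and 132 kept their direction. The 16 that reversed belonged to 6 genes. *Nfatc1* became -0.0039 without mice F and G, and with array weights *Nfatc4* became -0.0916 and *Slc5a3* 0.0753. Leaving out each mouse in turn gave -0.25 to 0.01 for *Nfatc2*, -0.10 to 0.10 for *Nfatc4*, -0.0794 to 0.50 for *Akr1b3*, -0.14 to 0.12 for *Slc5a3* and -0.21 to 0.0097 for *Slc6a12*. *Slc6a6* ranged over 0.74 to 1.13 without each mouse and was at an unadjusted p under 0.05 in 14 of 15 alternatives. *Akr1b3* was below that level in 1 of 15, the one without hypoxia mouse A. The count past the adjusted threshold, 0, became 57 without dim probe sets, 12 with an intensity trend and robust variance, 22 with array weights and 4 without mice F and G, and 0 to 33 without each mouse (33 without C, 23 without G, 14 without H). The count at an unadjusted p under 0.05, 2161, became 1391 without dim probe sets, where fewer genes are tested, and 3325 without mice F and G, and 1335 (without B) to 2653 (without H) without each mouse. The causes were not tested. All 313 recomputed differences of the other genes that the naming rule takes kept their direction and side of the adjusted threshold. At an unadjusted p under 0.05 some changed side, as given above for *Ppp3cc*, *Calm3* and others. The letters name separate mice in each group. No paired analysis was possible because the groups share no replicate label.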
